A study of Mus musculus with 20 samples.

Results

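The 10 genes described here, Smarca4, Smarca2, Smarcc1, Smarcc2, Smarcb1, Smarcd1, Smarcd3, Arid1a, Arid1b and Pbrm1, encode subunits of the SWI/SNF (BAF and PBAF) chromatin remodelling complexes of the mouse. They were taken by symbol, and all 10 were matched to an Ensembl gene among the 19733, 19732, 18557 and 18428 genes listed in the chromatin RNA libraries of CM KO, CM WT, ESC KO and ESC WT. CM stands for cardiomyocyte cultures grown from embryonic stem cells (ESCs) through embryoid bodies on gelatin. ESC stands for the stem cells themselves, all of strain C57BL/6. KO stands for Mettl3-KO, a knockout of Mettl3, whose product is the enzyme that writes most m6A in nuclear RNA, and WT for wild type. The KO allele, the number of clones and whether libraries came from separate cultures are not stated, so a p-value here covers no more than the scatter of these libraries, and that scatter may be technical. Open chromatin was measured by ATAC-seq in 3 libraries of each of the 4 groups, chromatin-associated RNA by ChrRNA-seq in 1 library per group, and m6A in chromatin-associated RNA by Chrm6A-seq in 1 list per group. CM KO replicate 3 of ATAC-seq is labelled as RNA, but its file is a peak list like the other 11, and it was used as one.

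SWI/SNF complexes use ATP to slide or evict nucleosomes, and so open enhancers and promoters. Each complex carries an ATPase, SMARCA4 (BRG1) or SMARCA2 (BRM), on a core of SMARCC subunits (SMARCC1, SMARCC2) and a SMARCD subunit. SMARCB1 is part of the core in all but the noncanonical form. ARID1A or ARID1B marks the BAF form and PBRM1 the PBAF form. Subunits encoded by paralogs exchange during differentiation: the complex of mouse ESCs (esBAF) is built on SMARCA4 and SMARCC1 and is poor in SMARCA2 and SMARCC2, while SMARCD3 (BAF60c) is known as a subunit of heart and muscle progenitors.

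The libraries stood apart in ways that touch every result below. ATAC-seq gave 73177 ± 3128 intervals in CM KO, 88791 ± 5064 in CM WT, 114635 ± 2404 in ESC KO and 112503 ± 6215 in ESC WT (SD, n = 3 each). The chromatin RNA libraries held 29844421, 29412985, 28095727 and 27974123 reads in CM KO, CM WT, ESC KO and ESC WT. Mettl3 itself had 1.07 RPKM in CM KO and 1.18 in CM WT, a ratio of 0.902 (0.775 to 1.05), and 1.28 in ESC KO and 1.73 in ESC WT, a ratio of 0.742 (0.647 to 0.849). These values cover the whole gene and check the labels only if the deletion removes its reads, which is not stated. Of 10 cardiomyocyte marker genes, 0 reached 1 RPKM in CM KO, 5 in CM WT and 0 in either ESC library, and their summed level was 1.64, 10.1, 0.718 and 0.941 RPKM in CM KO, CM WT, ESC KO and ESC WT. Nkx2-5, Tbx5 and Tnnt2 were not listed in either ESC library and entered the sum as 0, and Nkx2-5 stood at 0.0346 RPKM in CM KO and 0.0820 in CM WT. Of the 8 ESC markers, Sox2 was listed in no library, and the other 7 summed to 15.8, 9.03, 70.1 and 73.7 RPKM in the same order of groups, the 5 fibroblast markers to 7.74, 27.6, 0.245 and 0.184, the 4 endoderm markers to 5.87, 15.2, 0.0527 and 0.0383, the 3 erythroid markers to 45.0, 40.6, 0.0942 and 0.118, the 4 endothelial markers to 3.89, 2.51, 0.815 and 0.732, and the 3 listed neural markers of 4, without Tubb3, to 1.52, 1.78, 3.67 and 4.76. Markers of several cell types were thus present in the cultures, and fewer cells of a type cannot be told apart from less RNA per cell. The part of this make-up in the differences of the SWI/SNF genes was not tested.

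The start of each of the 10 genes lay in a region called in 12 of 12 ATAC-seq libraries, also for genes with little RNA in ESCs. A call does not measure how open a region is, and folds are given below. A region merges the overlapping intervals of the 12 libraries, and a library calls it by having an interval in it. Whether each library's own interval covers the start was not checked. RefSeq gives 11 start windows for them, each from 250 bases before to 50 after a start, on GRCm38.p6 (mm10). Of these, 10 lay wholly inside an interval region called in 12 of 12 libraries, and the second Arid1a window shared 82 of its 300 bases with one. The share of all RefSeq start windows in such regions was not counted, so no trait of the 10 genes is read from this. The 4 windows shown are those of the paired ATPase genes and the paired SMARCD genes, in which 1 gene of each pair was high in all libraries and the other was low in ESCs. Capitals mark GC boxes (GGGCGG on either strand).
Smarca4, chr9:21615919-21616218, plus strand: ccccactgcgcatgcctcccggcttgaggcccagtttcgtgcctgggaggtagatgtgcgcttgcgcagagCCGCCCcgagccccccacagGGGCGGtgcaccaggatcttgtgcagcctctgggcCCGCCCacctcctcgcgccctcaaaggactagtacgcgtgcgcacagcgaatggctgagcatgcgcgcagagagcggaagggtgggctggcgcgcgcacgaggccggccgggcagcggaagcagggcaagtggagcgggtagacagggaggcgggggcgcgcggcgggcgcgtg
Smarca2, chr19:26604910-26605209, plus strand: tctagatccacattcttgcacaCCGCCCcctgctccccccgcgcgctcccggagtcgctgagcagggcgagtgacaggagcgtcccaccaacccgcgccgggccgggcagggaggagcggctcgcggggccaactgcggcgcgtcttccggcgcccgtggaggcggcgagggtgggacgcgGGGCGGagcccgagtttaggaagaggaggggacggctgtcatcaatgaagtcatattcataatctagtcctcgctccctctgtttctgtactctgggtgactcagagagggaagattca
Smarcd1, chr15:99702037-99702336, plus strand: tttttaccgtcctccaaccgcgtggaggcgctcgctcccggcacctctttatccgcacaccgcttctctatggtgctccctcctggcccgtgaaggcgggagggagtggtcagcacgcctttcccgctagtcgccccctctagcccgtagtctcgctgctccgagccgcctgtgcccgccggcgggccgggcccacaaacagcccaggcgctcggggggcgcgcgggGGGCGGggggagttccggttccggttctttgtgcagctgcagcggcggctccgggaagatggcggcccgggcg
Smarcd3, chr5:24601953-24602252, minus strand: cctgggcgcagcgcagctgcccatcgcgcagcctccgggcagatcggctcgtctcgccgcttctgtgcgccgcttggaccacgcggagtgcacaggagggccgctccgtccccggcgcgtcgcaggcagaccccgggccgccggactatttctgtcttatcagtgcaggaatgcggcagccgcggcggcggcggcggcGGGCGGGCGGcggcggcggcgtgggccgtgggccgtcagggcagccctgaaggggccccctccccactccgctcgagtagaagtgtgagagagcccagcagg

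The GC content of the 4 windows was 72.3% for Smarca4, 65.7% for Smarca2, 71.3% for Smarcd1 and 74.7% for Smarcd3, against a median of 52.7% over 32851 RefSeq start windows of the same length. They held 33, 29, 35 and 40 CG pairs, against a median of 7. Each of the 11 windows of the 10 genes held a GC box, the letters of the SP1 element, which 35.7% of all windows hold. In none of the 11 were the letters of a CCAAT box (CCAAT, in 37.4% of all windows) or of a TATA box (TATAAA, in 13.6%) found on either strand. The authors' peak lists give the fold of each summit over the local background of its own library. The highest fold within the region at the start of Smarca4 was 8.58 to 10.2, and at that of Smarca2 5.86 to 8.18. By group, that of Smarca2 was 7.47 to 8.18 in CM KO, 6.69 to 8.06 in CM WT, 6.41 to 7.23 in ESC KO and 5.86 to 5.96 in ESC WT. For Smarcd1 it was 5.76 to 7.53, at the 55.2nd to 82.3rd percentile of its library's intervals. Smarcd3 has a pair of starts in such regions. The region at the RefSeq window above (chr5:24601768-24602786) had a fold of 2.36 to 3.68 (percentiles of 0.645 to 19.6), below that of Smarcd1 throughout. The region at the 5′ end of the longest gene model (chr5:24624220-24624811) had 3.09 to 8.07 (percentiles of 7.46 to 77.7). There the fold was 3.09 to 4.73 in the CM libraries and 5.28 to 8.07 in the ESC libraries. At the RefSeq window it was 2.96 to 3.68 in CM and 2.36 to 3.58 in ESC libraries. Differences of fold between groups were not tested.

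Chromatin RNA of the ATPase genes came almost wholly from Smarca4 in ESCs, and Smarca2 joined it in the cardiomyocyte cultures. Levels are given as RPKM, reads scaled to gene length and library size, over exons and introns together. Smarca4, the ATPase of esBAF, had 1.60 RPKM in CM KO, 1.75 in CM WT, 1.28 in ESC KO and 1.38 in ESC WT. Its ratio was 1.27 (1.21 to 1.32) in CM WT to ESC WT and 1.25 (1.19 to 1.31) in CM KO to ESC KO. Relative to the median gene, Smarca4 was higher by 0.61 on the log2 scale in WT and by 0.30 in KO. Smarca2, the alternative ATPase, had 0.337 RPKM in CM KO, 0.407 in CM WT, 0.0224 in ESC KO and 0.0165 in ESC WT, which came from 1741, 2076, 109 and 80 reads. Both CM libraries thus lay above both ESC libraries. The ratio of Smarca2 in CM WT to ESC WT was 24.7 (19.7 to 31.3) and in CM KO to ESC KO 15.0 (12.4 to 18.4). The range in brackets after a ratio is its 95% Clopper-Pearson interval on the reads, which covers counting error only and compares 2 libraries, not 2 conditions. Of the summed RPKM of the ATPase genes, Smarca2 held 17.4% in CM KO, 18.9% in CM WT, 1.71% in ESC KO and 1.18% in ESC WT. A gene that overlaps Smarca2, 4931403E22Rik, stood at 0.000608 RPKM in CM KO and 0.00185 in CM WT.

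**Figure D1:**
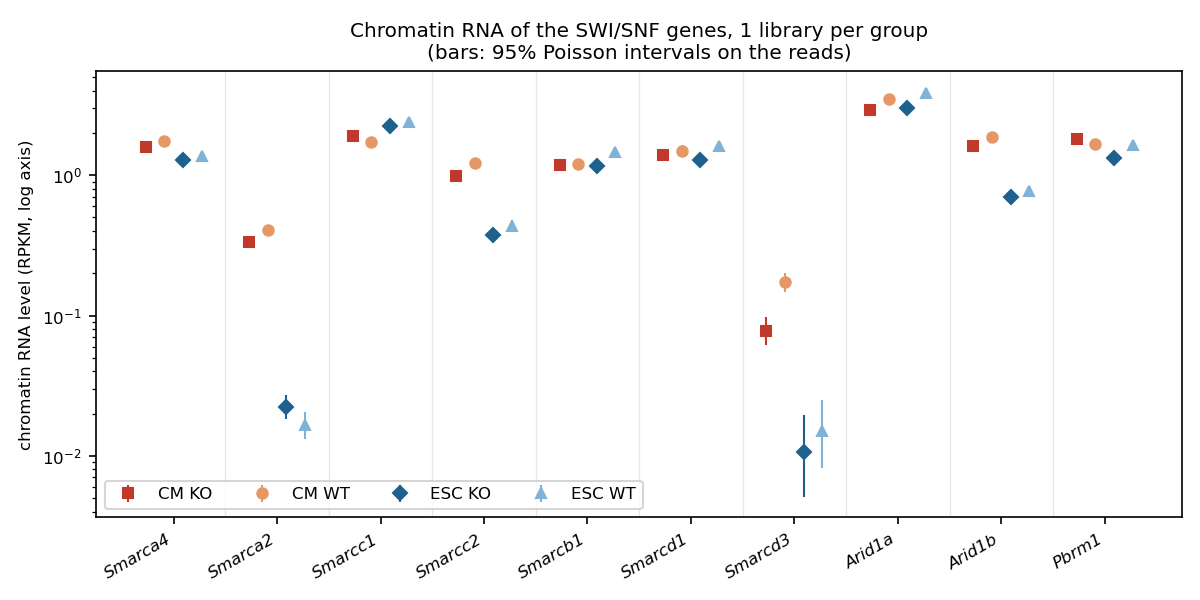
Chromatin RNA level (RPKM, log axis) of the 10 SWI/SNF genes in CM KO, CM WT, ESC KO and ESC WT, 1 library per group, with 95% Poisson intervals on the reads. Smarca2 and Smarcd3 are below 0.03 RPKM in both ESC libraries, and Smarcc2 and Arid1b are also lower in both ESC libraries than in both CM libraries.

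Among the core subunits, Smarcc2 was higher in both CM libraries and its paralog Smarcc1 was lower. Smarcc2 (BAF170) had 0.989 RPKM in CM KO, 1.23 in CM WT, 0.375 in ESC KO and 0.433 in ESC WT. Its ratio was 2.84 (2.52 to 3.20) in CM WT to ESC WT and 2.64 (2.32 to 3.00) in CM KO to ESC KO. Smarcc1 (BAF155) had 1.89, 1.74, 2.23 and 2.40 RPKM in CM KO, CM WT, ESC KO and ESC WT, with ratios of 0.723 (0.700 to 0.747) in CM WT to ESC WT and 0.848 (0.820 to 0.876) in CM KO to ESC KO. The share of Smarcc2 in the summed RPKM of the pair was 34.4% in CM KO, 41.5% in CM WT, 14.4% in ESC KO and 15.3% in ESC WT. Relative to the median gene, the ratio of Smarcc1 was still lower, by 0.16 on the log2 scale in WT and by 0.22 in KO. Smarcb1 (SNF5), which is common to all SWI/SNF forms except the noncanonical one, had 1.18 RPKM in CM KO, 1.21 in CM WT, 1.16 in ESC KO and 1.46 in ESC WT. Its highest value was in ESC WT, and the other three lay close together.

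In the SMARCD pair, Smarcd1 was near the same level in all 4 libraries and Smarcd3 was higher in both CM libraries than in both ESC libraries. Smarcd1 (BAF60a) had 1.40, 1.49, 1.29 and 1.61 RPKM in CM KO, CM WT, ESC KO and ESC WT. Smarcd3 had 0.0778 RPKM in CM KO, 0.173 in CM WT, 0.0106 in ESC KO and 0.0149 in ESC WT, from 78, 171, 10 and 14 reads. The ratio of Smarcd3 was 11.6 (6.74 to 21.7) in CM WT to ESC WT, 7.34 (3.79 to 15.9) in CM KO to ESC KO, and 0.450 (0.339 to 0.591) in CM KO to CM WT. It was the lowest of the 10 genes in each of the 4 libraries, and held 5.26%, 10.4%, 0.817% and 0.916% of the summed RPKM of the pair in CM KO, CM WT, ESC KO and ESC WT. The lower level in CM KO than in CM WT stood beside lower summed levels of the cardiomyocyte (1.64 against 10.1 RPKM), fibroblast (7.74 against 27.6) and endoderm markers (5.87 against 15.2) and a higher one of the ESC markers (15.8 against 9.03), whose part in it was not tested. Chpf2, a gene that overlaps the Smarcd3 gene model, had 1.32, 1.36, 0.833 and 0.595 RPKM in the same order, and whether reads were assigned by strand is not stated.

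The BAF-specific pair was again uneven, with Arid1b higher in the cultures and Arid1a the most abundant of the 10 genes everywhere. Arid1a had 2.94 RPKM in CM KO, 3.50 in CM WT, 3.04 in ESC KO and 3.86 in ESC WT. Both KO libraries were below their WT libraries, with ratios of 0.840 (0.813 to 0.867) in CM and 0.786 (0.761 to 0.812) in ESCs. Arid1b had 1.62 RPKM in CM KO, 1.86 in CM WT, 0.702 in ESC KO and 0.775 in ESC WT. Its ratio was 2.40 (2.34 to 2.47) in CM WT to ESC WT and 2.31 (2.24 to 2.37) in CM KO to ESC KO. Its share in the summed RPKM of the pair was 35.6%, 34.7%, 18.8% and 16.7% in CM KO, CM WT, ESC KO and ESC WT. Pbrm1, the bromodomain subunit of PBAF, had 1.80, 1.68, 1.32 and 1.64 RPKM in the same order, with its lowest value in ESC KO. Gnl3, at 102 to 192 RPKM over the libraries, lies within 2 kb of Pbrm1.

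The order of the 10 levels within a library was read with the counting interval of each ratio between neighbours. Arid1a came first in all 4 libraries, at the 95.5th, 97.4th, 95th and 96.1st percentile of the listed coding genes in CM KO, CM WT, ESC KO and ESC WT. In CM KO it was followed by Smarcc1, Pbrm1, Arid1b, Smarca4, Smarcd1, Smarcb1, Smarcc2, Smarca2 and Smarcd3, and of these neighbours only Arid1b and Smarca4 had an interval that included 1. In CM WT the order was Arid1a, Arid1b, Smarca4, Smarcc1, Pbrm1, Smarcd1, Smarcc2, Smarcb1, Smarca2 and Smarcd3, where the neighbours Smarca4 and Smarcc1, Smarcc1 and Pbrm1, and Smarcc2 and Smarcb1 had intervals that included 1. In both ESC libraries Arid1a was followed by Smarcc1, Pbrm1 and Smarcd1 in that order, and Arid1b, Smarcc2, Smarca2 and Smarcd3 took the last 4 places. The neighbours whose interval included 1 were Pbrm1 and Smarcd1, and Smarcd1 and Smarca4, in ESC KO. In ESC WT they were Pbrm1 and Smarcd1, Smarcd1 and Smarcb1, Smarcb1 and Smarca4, and Smarca2 and Smarcd3. Arid1b stood at the 86.5th and 91.7th percentile in CM KO and CM WT and at the 64.1st and 62.9th in ESC KO and ESC WT.

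Log2 ratios of the 10 genes were compared with those of all 8145 genes whose mean over the 4 libraries was at least 0.5 RPKM, with 0.1 RPKM added to each value, which understates the change of low genes. Smarca2, with a mean of 0.196 RPKM, and Smarcd3, with 0.0691, fell below that mean, which left 8 of the 10 in the counts at 1.5-fold. In CM WT against ESC WT, 2 of the 8 were at least 1.5-fold higher, Smarcc2 and Arid1b, and 0 were lower, while 13.5% of all genes were higher and 31.8% lower. Between CM KO and ESC KO the same 2 of 8 were higher and 0 lower, with 18.1% of all genes higher and 13.1% lower. Without the minimum, Smarca2 and Smarcd3 made it 4 of 10 in each comparison. The shares of all genes given here hold only with the minimum, and those without it were not counted. Between CM KO and CM WT, 0 of 8 were higher (8.94% of all genes) and 0 lower (2.96%), and Smarcd3 was lower without the minimum. In ESC KO against ESC WT, 0 of 8 were higher (3.01% of all genes) and 0 lower (7.17%).

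The median log2 ratio of all genes was not 0, so the 10 genes were also read against it. For CM KO against CM WT the median was -0.15 for the 10 genes and 0.17 for all genes, and 10 of 10 lay below the median gene, although Smarcc1 (0.11) and Pbrm1 (0.10) had ratios above 0. In ESC KO against ESC WT the median was -0.15 for the 10 genes and -0.13 for all genes, and 5 of 10 lay below the median gene. In CM WT against ESC WT the median was 0.17 for the 10 genes and -0.29 for all genes, and 9 of 10 lay above the median gene, all but Smarcc1. For CM KO against ESC KO the median was 0.36 for the 10 genes and -0.00 for all genes, with 8 of 10 above. The comparisons share libraries, so these values are given side by side and not as separate support.

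**Figure D2:**
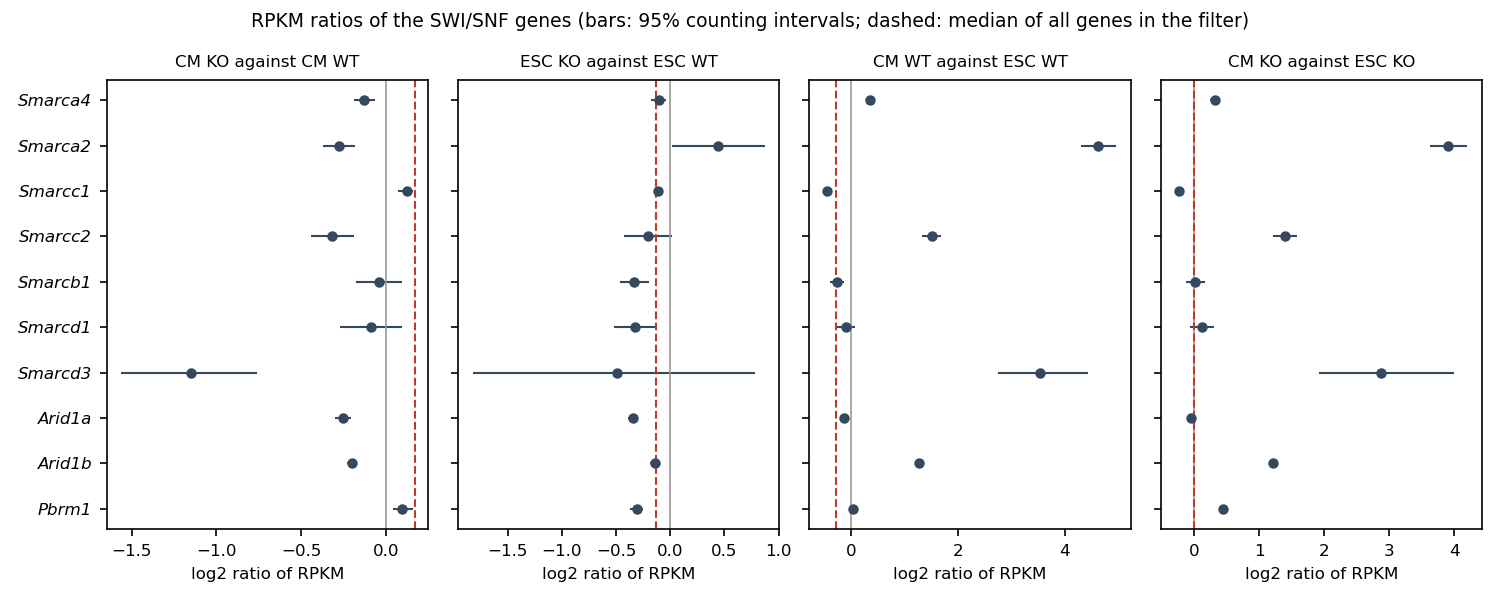
Log2 ratio of RPKM for each of the 10 genes in the 4 comparisons, with 95% counting intervals. The dashed line is the median of all genes in the filter (on the RPKM + 0.1 scale), which is 0.17 in CM KO against CM WT, where all 10 points lie to its left.

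The wider family was read from a list of 21 other SWI/SNF subunit genes, of which 20 were matched and 14 passed the minimum. In CM WT against ESC WT, 2 of 14 were at least 1.5-fold higher and 3 lower, against 13.5% and 31.8% of all genes. Bicral, a paralog of the GLTSCR1 subunit of the noncanonical form, had 0.294 RPKM in CM WT and 1.15 in ESC WT, a ratio of 0.256 (0.237 to 0.276). Its paralog Bicra had 0.906 in CM WT and 0.456 in ESC WT, a ratio of 1.99 (1.85 to 2.14). Actl6a (BAF53a), the actin-like subunit of ESC and progenitor complexes, had 1.35 in CM WT and 2.79 in ESC WT, a ratio of 0.485 (0.446 to 0.528), and Actb had 45.4 in CM WT and 22.3 in ESC WT. Actb has many processed pseudogenes, and its value depends on how the authors assigned reads among them. In CM KO against ESC KO, 4 of 14 were higher and 1 lower, against 18.1% and 13.1% of all genes. Bicral had 0.263 RPKM in CM KO and 0.866 in ESC KO, Bicra 0.892 and 0.508, and Actb 37.2 and 14.5. Arid2, the ARID subunit of PBAF, had 2.57 and 1.54. Between CM KO and CM WT, 0 of 14 were higher or lower, against 8.94% and 2.96% of all genes. In ESC KO against ESC WT, 0 were higher and 2 lower, against 3.01% and 7.17% of all genes. The 2 were Bcl7a, with 0.660 RPKM in ESC KO and 1.11 in ESC WT, and Actb, with 14.5 in ESC KO and 22.3 in ESC WT.

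Genes of other remodeller families were counted in the same way, and the same shares of all genes apply. In CM WT against ESC WT these were 13.5% higher and 31.8% lower, and in CM KO against ESC KO 18.1% and 13.1%. In CM KO against CM WT they were 8.94% and 2.96%, and in ESC KO against ESC WT 3.01% and 7.17%. Of 9 ISWI genes in the filter, 1 was higher and 0 lower in CM WT against ESC WT, and 0 were past 1.5-fold in the other comparisons. Of 18 CHD and NuRD genes, 1 was higher and 2 lower in CM WT against ESC WT, 3 higher and 1 lower in CM KO against ESC KO, and 0 in either direction in both comparisons of KO with WT. Of 12 INO80 and SRCAP genes, 0 were higher in any comparison. In CM WT against ESC WT 4 were lower, in CM KO against ESC KO 1, in ESC KO against ESC WT 1 and in CM KO against CM WT 0. Median log2 ratios in CM KO against CM WT were 0.08 for the other SWI/SNF genes, 0.05 for ISWI, 0.08 for CHD and NuRD and 0.09 for INO80 and SRCAP. These also lay below the 0.17 of all genes, and the median was -0.10 for the 8 of the 10 genes in the filter.

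Genes most like 3 of the 10 were sought among coding genes with a mean of at least 0.5 RPKM, which Smarca2 and Smarcd3 themselves do not reach. The measure was the distance between log2(RPKM + 0.1) profiles centred over the 4 libraries. For Smarca4, among 7030 coding genes, they were Ephb3 at 0.018, Bicd2 at 0.020 and Zfp37 at 0.038. For Smarca2, among 7031, they were Cd47 at 0.044, Smpd1 at 0.114 and Sox4 at 0.124, and for Smarcd3 Vat1 at 0.112, Spaca6 at 0.113 and Sipa1l2 at 0.113. Cd47, for example, had 0.861 RPKM in CM KO, 0.986 in CM WT, 0.164 in ESC KO and 0.146 in ESC WT, and so lay higher in both CM libraries, as Smarca2 did. The 0.1 RPKM added shrinks the changes of low genes. In CM WT against ESC WT the log2 ratio was 2.12 with it and 4.63 without for Smarca2, and 1.25 and 3.54 for Smarcd3. Vat1, with 1.59 RPKM in CM WT and 0.64 in ESC WT, thus changed less than Smarcd3 on the plain scale. Distances over 4 libraries rank genes only roughly.

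In open chromatin, Smarca2 held fewer intervals in CM KO than in CM WT. The number of called intervals in the gene plus 2 kb on each side was 5, 6 and 7 in the CM KO libraries, 11, 10 and 15 in CM WT, 12, 12 and 10 in ESC KO, and 14, 15 and 14 in ESC WT. The 3 CM KO libraries lay below all others. In a limma fit over 18052 coding genes on log2(number + 0.5), Smarca2 fell by 0.93 in CM KO against CM WT (SE 0.16, Benjamini-Hochberg adjusted p = 0.0122), lower in 3 of 3 libraries. It was called in each of 12 fits that left out 1 library, with adjusted p from 0.0141 to 0.0367. Since CM KO libraries had fewer intervals in all, the number per 100000 intervals was also fitted, and there Smarca2 was lower by a log2 difference of -0.66 with an adjusted p of 0.0532. At the stricter threshold of a −log10 q of 5 the adjusted p was 0.0748. It was 1 of 10 genes called in this comparison, against 6.56% of all genes, and 0 of 10 were called in ESC KO against ESC WT, against 0.897%, where 1 of 10 had an unadjusted p under 0.05. The 3 ESC KO libraries also lay below the 3 ESC WT libraries in Smarca2, with a difference of -0.33 in the number of intervals (limma adjusted p = 0.585) and of -0.65 in the bases they cover, which was called (limma adjusted p = 0.0297). The difference of the KO effect between CM and ESC was called for 0 of 10, against 3.80% of all genes. For Smarca2 it was -0.60 (SE 0.23, limma adjusted p = 0.246), and 2 of 10 had an unadjusted p under 0.05.

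Against ESCs, several genes, each with 2 kb on both sides, held fewer intervals in the cultures. In CM WT against ESC WT, 3 of 10 genes were called, all fewer, against 22.7% of all genes, whose median log2 difference was -0.25. Smarca4 had 3, 6 and 3 intervals in CM WT and 8, 7 and 7 in ESC WT, a difference of -0.86 (SE 0.25, limma adjusted p = 0.0400). Smarcc2 had 3, 4 and 3 in CM WT and 6, 6 and 4 in ESC WT, which overlap at 4, a difference of -0.60 (SE 0.16, limma adjusted p = 0.0308). The 1 Smarcc2 region closed in CM WT (chr10:128491386-128491756) lies past the gene's 3′ end, in the flank that also holds Myl6. Arid1b, the longest gene, had 34, 45 and 33 in CM WT and 53, 50 and 46 in ESC WT, a difference of -0.42 (SE 0.11, limma adjusted p = 0.0272). All 3 calls were lost without CM WT replicate 1 or 3 or ESC WT replicate 1 or 2, where the smallest limma adjusted p was 0.0719. That of Smarca4 was also lost without CM KO replicate 1, ESC WT replicate 3 or any 1 of the ESC KO libraries, with limma adjusted p from 0.0571 to 0.0800. At a −log10 q of at least 5 Smarca4 was at -0.91 (limma adjusted p = 0.0611), while Smarcb1 was called as higher (0.74, limma adjusted p = 0.0135). None of the 3 was called per 100000 intervals, where the 3 adjusted p-values were 0.0974, 0.195 and 0.493. Smarcc2 and Arid1b thus had more chromatin RNA but fewer called intervals in CM WT than in ESC WT before scaling to library totals. Per 100000 intervals the log2 differences were only -0.25 for Smarcc2 and -0.08 for Arid1b.

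The KO comparison, CM KO against ESC KO, called 4 of 10, all fewer, against 29.5% of all genes, whose median log2 difference was -0.40. Arid1b had 30, 29 and 31 intervals in CM KO and 45, 45 and 49 in ESC KO (-0.62, SE 0.11, limma adjusted p = 0.00455). The groups of Arid1b did not overlap, but per 100000 intervals its difference was 0.03. Smarca2 fell by 0.87 (SE 0.16, limma adjusted p = 0.00514). Smarcc1 had 2, 4 and 4 in CM KO and 7, 7 and 6 in ESC KO (-0.95, SE 0.24, limma adjusted p = 0.0176). Arid1a had 7, 5 and 5 in CM KO and 9, 8 and 11 in ESC KO (-0.68, SE 0.17, limma adjusted p = 0.0201). The call of Smarcc1 was lost without ESC KO replicate 1 or 2 (limma adjusted p of 0.0540 and 0.0524), and that of Arid1a without CM KO replicate 2 or 3 or ESC KO replicate 3 (0.0597, 0.0643 and 0.0673). At a −log10 q of at least 5 both were lost, with Smarcc1 at -0.40 (limma adjusted p = 0.307) and Arid1a at -0.10 (0.862). Per 100000 intervals none of the 4 was called, and Smarcb1 (1.42, limma adjusted p = 0.00355) and Smarcd3 (0.47, limma adjusted p = 0.00934) were called as higher instead. Smarcb1 had 2, 2 and 4 intervals in CM KO and 1, 2 and 1 in ESC KO, and Smarcd3 7, 7 and 6 in CM KO and 9, 7 and 7 in ESC KO.

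**Figure D3:**
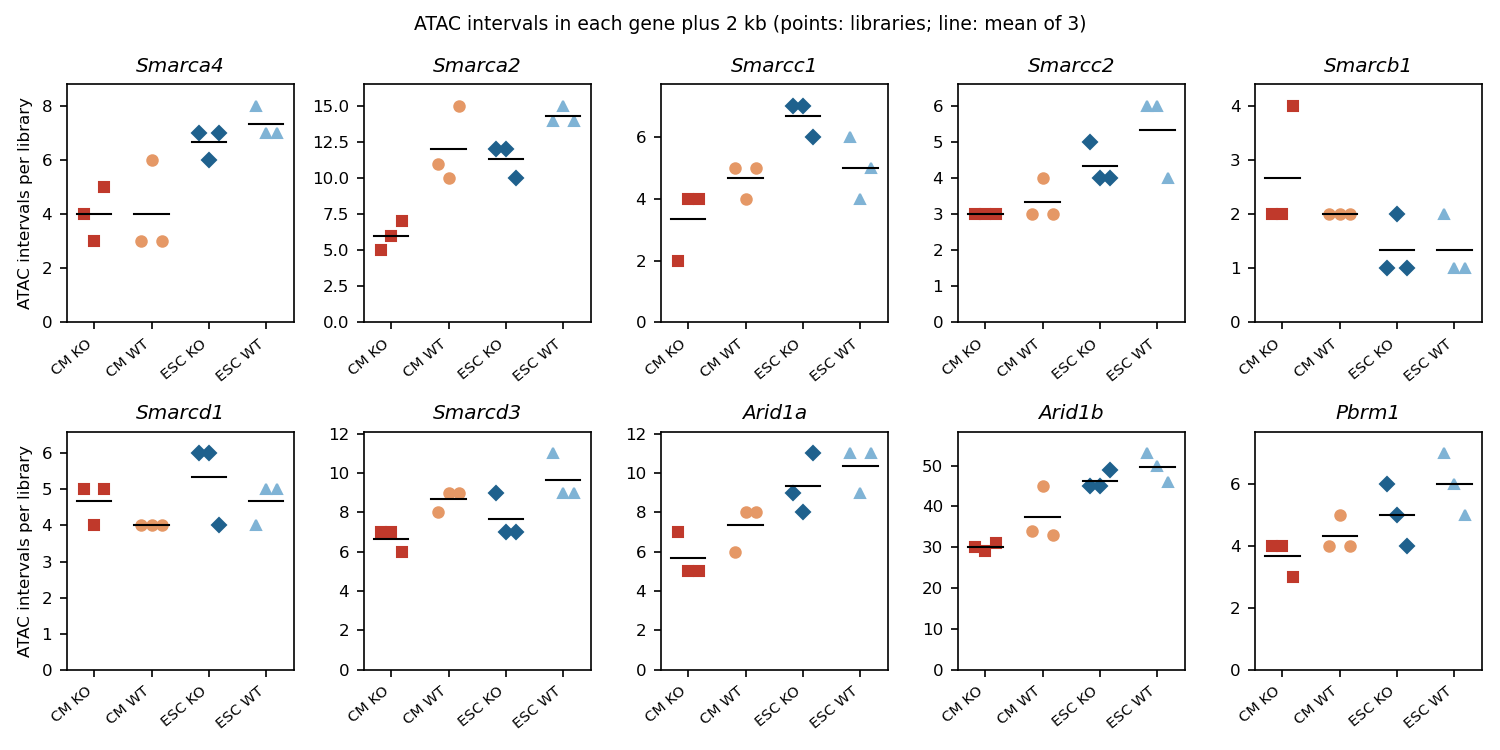
Number of ATAC-seq intervals in each gene plus 2 kb in each of 12 libraries (points), with the mean of 3 (lines). Smarca2 has 5 to 7 intervals in CM KO and 10 to 15 in every other library, and Arid1b has 29 to 31 in CM KO and 45 to 53 in the ESC libraries.

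Merging the intervals of the 12 libraries gave 190 regions in the 10 genes plus 2 kb, of 193427 in the genome. Of these, 41 (21.6%) were called in 12 of 12 libraries, against 21.1% of all regions, and Arid1b alone held 78. A region counts as opened where all 3 libraries of the group named first call it and 0 of the 3 it is set against do, and as closed where the reverse holds, with no test. In CM WT against ESC WT, 8 of 190 were opened (4.21%, against 5.83% of all regions) and 24 closed (12.6%, against 11.5%). In CM KO against ESC KO, 2 were opened (1.05%, against 0.948%) and 11 closed (5.79%, against 9.74%). In CM KO against CM WT, 1 was opened (0.526%, against 0.754%) and 7 closed (3.68%, against 3.74%), and in ESC KO against ESC WT 0 were opened (against 1.25%) and 0 closed (against 1.37%). The share of closed regions in CM KO against ESC KO was thus below that of all regions, and no difference between the SWI/SNF genes and all regions was tested.

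The 8 regions opened in CM WT lay 1 each in 8 genes, all but Smarcc2 and Smarcd1, and 6 of them were called in 0 CM KO libraries. For all regions that number was 5586 of 11278. Of the 8, 5 were called in CM WT alone, as were 5214 of the 11278. Called in 3 of 3 CM WT libraries and in 0 of the 9 others were a region of Smarca2, 104.2 kb from the gene's 5′ end (chr19:26709076-26709404), one of Smarcc1 at 7.3 kb (chr9:110139186-110139438), one of Smarcd3 at 15.0 kb (chr5:24609326-24609677), one of Arid1b at 91.9 kb (chr17:5086003-5086355) and one of Pbrm1 at 67.5 kb (chr14:31086499-31086720). All 5 lie inside the gene span, and whether they are in exons or introns was not analysed here. The Smarca4 region at 81.1 kb (chr9:21696916-21697422) was called in 0, 3, 1 and 0 libraries of CM KO, CM WT, ESC KO and ESC WT. The Arid1a region at 5.0 kb (chr4:133751594-133751878) was called in 1, 3, 0 and 0. In Smarcb1, the region at 22.6 kb (chr10:75898897-75899231) was called in 3, 3, 0 and 0, and was the only one of the 8 that was also opened in KO differentiation.

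Of the 7 regions closed in CM KO against CM WT, 6 are among those just given. The other, in Smarca2 at 8.7 kb (chr19:26613591-26613894), was called in 0 CM KO, 3 CM WT, 2 ESC KO and 3 ESC WT libraries. The 1 region opened in CM KO against CM WT, in Arid1b at 66.6 kb (chr17:5060660-5061068), was called in 3, 0, 3 and 3 libraries, so that it was called in all ESC libraries and in CM KO. A neighbouring Arid1b region at 64.2 kb (chr17:5058244-5058737) was called in 3 CM KO, 3 CM WT, 0 ESC KO and 2 ESC WT libraries. Regions called in all 6 ESC libraries and in 0 of 6 CM libraries numbered 5 (2.63% of 190, against 4.30% of all regions), namely 2 in Arid1a (chr4:133685302-133685706 and chr4:133706104-133706675) and 3 in Arid1b (chr17:5014750-5015232, chr17:5097580-5097885 and chr17:5341752-5342832). In all, 40 regions were opened or closed in at least 1 comparison.

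**Figure D4:**
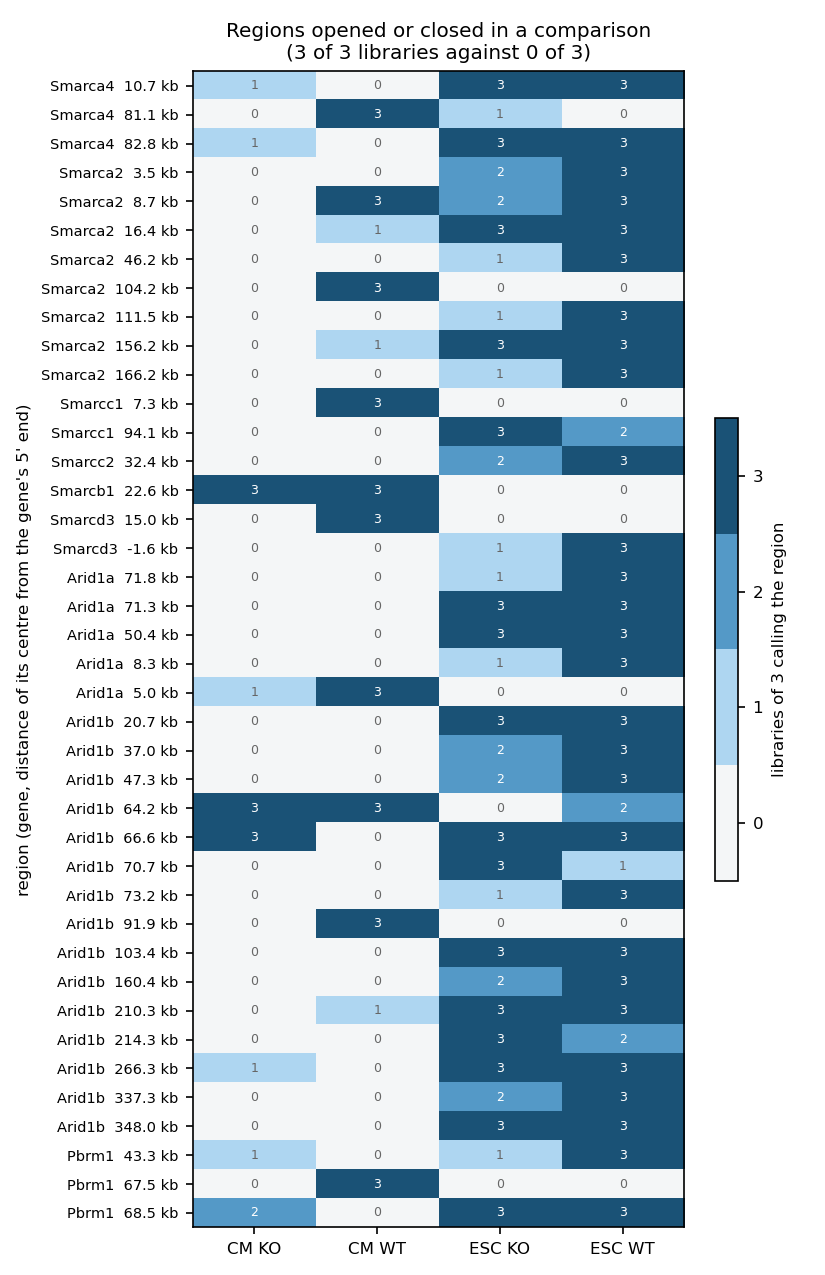
The 40 regions of the SWI/SNF genes opened or closed in at least 1 comparison, by gene and distance of the centre from the gene's 5′ end, with the number of 3 libraries in each group that call them. The rows with 3 in CM WT and 0 in the other columns are the 5 regions called in CM WT alone.

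Listed m6A positions lay mostly in Arid1a, Arid1b and Pbrm1. Each list gives positions as a distance from the 5′ end of the gene with a motif of 4 bases, which in every case began with a pair of purines and ended in AC, as in the METTL3 consensus, whose A before the C is methylated. The 10 genes held 27 of 13962 positions in CM KO, 49 of 25617 in CM WT, 17 of 18076 in ESC KO and 25 of 16983 in ESC WT, which is 0.193%, 0.191%, 0.0940% and 0.147% of each list. Arid1a held 14, 19, 13 and 14 of these in CM KO, CM WT, ESC KO and ESC WT, Arid1b 9, 12, 1 and 4, and Pbrm1 3, 11, 3 and 7. A listed gene held a median of 2. Smarca4 had 2 positions and Smarcc1 2, all in CM WT, and Smarcc2 had 3 in CM WT and 1 in CM KO. Smarca2, Smarcb1, Smarcd1 and Smarcd3 had 0 in every list, which is no sign that they lack m6A, since a list holds only positions above the authors' limit.

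In each cell type the KO list held fewer positions of the 10 genes than the WT list, and most of what it held was shared with WT. With 1 list per group this has no replicate check. In CM, 22 positions were in both lists, 81.5% of CM KO and 44.9% of CM WT, against 65.3% and 35.6% over the whole lists. In ESCs, 11 were in both, 64.7% of ESC KO and 44.0% of ESC WT, against 50.7% and 53.9%. The whole CM KO list was shorter than that of CM WT, while the whole ESC KO list was longer than that of ESC WT. The share of each whole list that lay in the 10 genes was 0.193% in CM KO and 0.191% in CM WT. It was 0.094% in ESC KO and 0.147% in ESC WT. In CM the lower count thus went with the shorter list. Between cell types, CM WT and ESC WT shared 17, which is 34.7% and 68.0% of them (whole lists 35.1% and 53.0%), and CM KO and ESC KO shared 10, which is 37.0% and 58.8% (whole lists 49.7% and 38.4%). Over the 4 lists, 63 positions were distinct, of which 8 were in all 4 lists, 29 in WT lists only and 6 in KO lists only. The 8 were 5 in Arid1a, 1 in Arid1b and 2 in Pbrm1, and so stayed listed in libraries labelled Mettl3-KO. Such counts are not given here for the whole lists, which differ in length.

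Of the 63 positions, 34 lay in the last 10% of the gene's length. The share of all listed positions in such last parts was not counted. Listed positions of other genes also lay towards the 3′ end, with the medians given below. In Arid1a, whose transcript reads from the minus strand of chromosome 4, 17 of 29 positions lay in that last part, among them GGAC at 76.0 kb (chr4:133680793, first base) and GAAC at 76.4 kb (chr4:133680388), both in all 4 lists. The other 3 in all 4 lists were GAAC at 3.8 kb (chr4:133753009), AGAC at 11.3 kb (chr4:133745430) and GAAC at 71.5 kb (chr4:133685284). In Pbrm1 the 2 positions in all 4 lists were GGAC at 48.4 kb, at chr14:31067509 and chr14:31067575, in the middle of the gene. All 5 positions in the last 10% of Pbrm1 were in WT lists only. Over the whole lists, 35.6% of CM WT and 53.9% of ESC WT positions were also in the KO list of the same cell type. A position in the WT list only was thus common. Arid1b had 1 position in all 4 lists, GGAC at 165.1 kb, and 7 of its 14 lay in the last 2% of its length. The median position was at 96.4%, 91.9%, 91.7% and 96.4% of the gene for Arid1a in CM KO, CM WT, ESC KO and ESC WT. It was at 46.7%, 46.6%, 46.7% and 72.6% for Arid1b and at 47.2%, 47.4%, 47.3% and 47.4% for Pbrm1. For genes whose length could be matched to RefSeq it was 78.0%, 80.7%, 72.6% and 80.5%, so Arid1a lay above and Arid1b and Pbrm1 below in the 4 lists. Some of these medians rest on few positions, 1 in ESC KO and 4 in ESC WT for Arid1b and 3 in each KO list for Pbrm1.

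**Figure D5:**
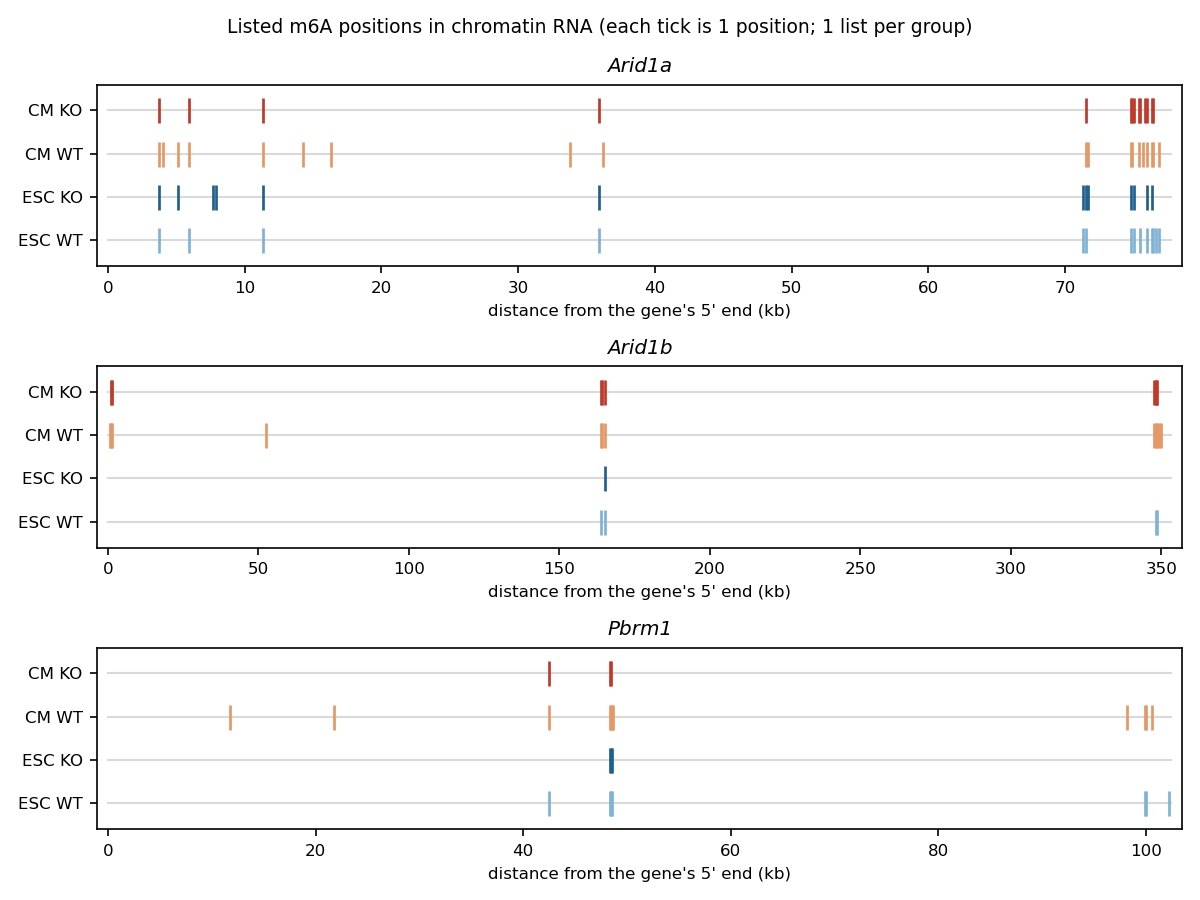
Listed m6A positions (ticks) along Arid1a, Arid1b and Pbrm1, as distance in kb from the gene's 5′ end, 1 list per group. Ticks crowd at the 3′ end of Arid1a in all 4 lists, while the 3′ end of Pbrm1 has ticks in CM WT and ESC WT only. Over the whole lists, 35.6% of CM WT and 53.9% of ESC WT positions are also in the KO list of the same cell type.

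The number of positions went with the level of the RNA in some genes and not in others, and a list can only hold what its reads cover. Arid1b had 9 and 12 positions at 1.62 and 1.86 RPKM in CM KO and CM WT, and 1 and 4 at 0.702 and 0.775 RPKM in ESC KO and ESC WT. Pbrm1 had 3 and 11 positions at 1.80 and 1.68 RPKM in CM KO and CM WT, and so fewer in KO at a similar level. Smarca4 and Smarcc1 had 0 and 2 positions each in CM KO and CM WT at 1.60 and 1.75 and at 1.89 and 1.74 RPKM. Of the 29 Arid1a positions, 4 lay inside an ATAC region, and the share over all positions is not given here. The GGAC at 33.8 kb, in the CM WT list only, lay in a region called in 1 CM WT library and no other. The AAAC at 36.2 kb, also in the CM WT list only, lay in a region called in 1 ESC KO library and 0 CM libraries. The AAAC at 5.1 kb, in the CM WT and ESC KO lists, lay in the region opened in CM WT (chr4:133751594-133751878), and the AGAC at 71.3 kb, in both ESC lists and in neither CM list, lay in the region called in all 6 ESC libraries and 0 CM libraries (chr4:133685302-133685706).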

How the data were processed

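The members and gene lists were chosen with earlier results of these data known. Per the submitters' processing notes, cutadapt, Bowtie, Picard, MACS2 and HISAT2 were used with mm10; their roles, versions and parameters, and the annotation, are not stated. ATAC-seq reads were single end, per the labels' protocols, and whether they were shifted is not stated. The deposited ATAC-seq peak lists, 1 per library, give a score, a fold enrichment (ratio), and −log10 p and −log10 q values of each summit, with a lowest −log10 q of 1.30. The authors' scores were not used further. Summits of one interval were counted once, and peaks have no stated depth. The deposited ChrRNA-seq values are RPKM per Ensembl gene, with no header.

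Intervals sharing at least 1 bp with a RefSeq gene (GRCm38.p6) plus 2 kb were counted. Their log2(number + 0.5) was fitted with limma 3.58.1 (R 4.3.3, trend and robust) over coding genes with an interval in at least 1 of the 12 libraries. Genes were called at a Benjamini-Hochberg adjusted p under 0.05. A test on simulated data used the fit scaled to library totals, so it did not check this unscaled fit. Its outcome is not given here, and no conclusion is drawn from it. Genes of 1 read gave the read total of each RPKM library (29844421, 29412985, 28095727 and 27974123 for CM KO, CM WT, ESC KO and ESC WT). The gene length that made the reads whole in each library, within 0.0001, then gave reads per gene, with the length of Smarcd1, Arid1a and Pbrm1 equal to that of RefSeq. These reads serve only for the 95% intervals, and no count test was run. Position lists were cleared of repeated lines (88, 136, 105 and 110). Positions count from 0 at the 5′ end of the gene: where the length matched, 62 of 62 positions in RefSeq start windows held the listed motif there. Coordinates are given only for Arid1a and Pbrm1. The lists could not be tested for a 2 kb flank, because they name genes.

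Groups follow the sample titles. All 10 genes are named. Other SWI/SNF genes are named when at least 1.5-fold higher or lower with a mean of at least 0.5 RPKM, at most 4 per comparison, regions when opened or closed or at a start, and like genes as the nearest 3. Alternatives covered scaling, covered bases, thresholds, flank, pseudocount, filters, the replicate number as a block and libraries left out. Same-numbered libraries did not deviate together (correlations of -0.028 to 0.020).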

Additional observations from a re-analysis of the deposited data

Results flagged for a closer look

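For 3 of the 10 genes the ratio of KO to WT in chromatin RNA lay on opposite sides of 1 in the cultures and in ESCs, with both 95% counting intervals clear of 1. The difference between cell types was not tested, since each ratio compares 1 library with 1. Smarca2 had a ratio of 0.827 (0.775 to 0.881) in CM and 1.36 (1.01 to 1.83) in ESCs, where it rests on 109 reads in ESC KO and 80 in ESC WT. Smarcc1 had 1.09 (1.05 to 1.12) in CM and 0.927 (0.899 to 0.956) in ESCs. Pbrm1 had 1.07 (1.03 to 1.12) in CM and 0.807 (0.773 to 0.842) in ESCs. Read against the median gene, with log2 medians of 0.17 in CM and -0.13 in ESCs, Pbrm1 was lower in both (-0.07 and -0.16), Smarcc1 stood at -0.05 and 0.02, and Smarca2 kept the 2 directions (-0.38 and 0.20).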

How the results depend on the processing

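Genes called by limma numbered 1, 0, 3 and 4 in CM KO against CM WT, ESC KO against ESC WT, CM WT against ESC WT and CM KO against ESC KO. In the same order they were 0, 0, 0 and 2 per 100000 intervals (5.81%, 0.787%, 30.7% and 33.3% of all genes) and 4, 1, 10 and 10 by covered bases (16.4%, 0.720%, 46.4% and 59.9%), where the 1 in ESCs is Smarca2. At a −log10 q of at least 5 they were 0 in the first and 2 in the last, Smarca2 and Arid1b (5.57% and 25.2%), and with 10 kb flanks 6 and 7 in the last pair (34.3% and 45.0%). Leaving out 1 library at a time gave 1 to 1, 0 to 0, 0 to 3 and 3 to 5. The difference of Arid1b in CM KO against ESC KO reversed to 0.03 per 100000 intervals. The replicate numbers did not pair the libraries; with the number as a replicate block 1, 0, 2 and 5 genes were called, where Smarca4 (limma adjusted p = 0.0861) and Arid1b (0.0543) lost their call in CM WT against ESC WT.

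Opened and closed regions numbered 1 and 7 in CM KO against CM WT, 0 and 0 in ESC KO against ESC WT, 8 and 24 in CM WT against ESC WT, and 2 and 11 in CM KO against ESC KO. At the stricter q they were 0 and 4 in the first, 3 closed in the second, 4 opened in the third, and 1 and 7 in the fourth. When each library kept the same number of intervals (70132) they were 2 and 4, 2 closed, 10 closed, and 6 and 3. When an interval had to cover at least 50% of a region, chosen after seeing the data because the planned overlap changes nothing here, 3 were closed in the second and 1 opened in the fourth. The planned overlap rule gives the same counts by construction, as every interval lies within its region, and counting m6A in the gene body only was not run, since positions are listed by gene. Leaving out 1 library gave 1 to 2 opened and 7 to 9 closed in the first, 0 to 1 and 2 to 4 in the second, 8 to 10 and 26 to 30 in the third, and 2 to 3 and 14 to 15 in the fourth; fewer libraries make the rule easier to meet.

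The median log2 RPKM ratio of the 10 genes moved to -0.32 in CM KO against CM WT and 0.46 in CM WT against ESC WT when libraries were scaled to the median gene. It was 0.03 and 0.16 in CM WT against ESC WT and CM KO against ESC KO over the 4 genes that overlap no other, and -0.04 and 0.21 over the 8 with at least 0.5 RPKM, an alternative added after seeing the data. With 1 RPKM added it was 0.14 in CM KO against ESC KO. Genes at least 1.5-fold higher numbered 2 in each; they were 4 in each with no minimum, 1 in each among genes that overlap no other, and 1 in CM KO against ESC KO with 1 RPKM added. Without the minimum 1 was lower in CM KO against CM WT, and the shares of all genes without the minimum were not counted. Merging m6A positions within 100 bp kept the order of the lists (23, 45, 16 and 22 in CM KO, CM WT, ESC KO and ESC WT). Other than as said above, the cause of these moves was not tested.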

Other observations

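Dpf3, a PHD finger subunit of BAF (BAF45c) known for its part in heart and muscle, had a mean of 0.171 RPKM, below the minimum, and was chosen after its values were seen. It had 0.351 RPKM in CM KO, 0.303 in CM WT, 0.0165 in ESC KO and 0.0138 in ESC WT, from 2873, 2438, 127 and 106 reads. The ratio was 21.9 (18.0 to 26.8) in CM WT to ESC WT and 21.3 (17.8 to 25.6) in CM KO to ESC KO. Unlike Smarcd3, it was not lower in CM KO than in CM WT. Bcl11a, a zinc finger subunit of BAF, also chosen after its values were seen, had 0.221 RPKM in CM KO, 0.464 in CM WT, 0.172 in ESC KO and 0.230 in ESC WT, with a ratio of 0.475 (0.432 to 0.523) in CM KO to CM WT.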
